A study of Homo sapiens with 3 samples.

Results

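Glycolysis enzymes and genes of the hypoxia response were examined in SW480, an established line of human colon adenocarcinoma cells, after knockdown of the RNA-binding protein RBMS1. The set was chosen by name: 7 regulators of the hypoxia-inducible factor HIF, 23 glycolytic enzymes with their close regulators, and 11 HIF targets. Of these 41 genes, 39 had at least 1 row in the authors' deposited table, with 77 transcripts between them, out of 12582 named genes and 20104 transcripts in all. The HIF targets BNIP3, a mitophagy receptor, and CA9, a carbonic anhydrase of the cell surface, have no row in that table and were not analysed here.

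Total RNA was sequenced from 3 libraries, 2 of cells transduced with control shRNA (shControl) and 1 of cells transduced with a single hairpin against RBMS1 (shRBMS1), each collected 48 hours after transduction. All cells grew in McCoy's medium with serum, glutamine, pyruvate and antibiotics, and their oxygen supply is not stated in the labels. The labels do not say either if 1 hairpin served both controls. The values are the authors' log fold changes per RefSeq transcript, knockdown over control, and genes are given as the median over their listed transcripts, computed here. Their base is not stated, and base 2 was read from the spacing of repeated values. Every percent of control rests on it. With 1 knockdown library and no value per library, nothing below has a replicate check or a test, "lower" and "higher" compare these libraries alone, and the depth behind each value is unknown. The sign was fixed by taking RBMS1 as lower in the knockdown, where its transcripts stood at −1.62 and −1.36 per the authors' deposited table, so every sign would turn if the ratio ran the other way.

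Glycolysis splits glucose into pyruvate in the cytosol, and lactate dehydrogenase then turns pyruvate into lactate. Under low oxygen the transcription factor HIF, a dimer of an unstable alpha subunit and ARNT, raises many of these enzymes together with genes of angiogenesis, matrix synthesis and mitophagy. With oxygen present, EGLN prolyl hydroxylases mark the alpha subunit for VHL, which has it degraded, and the asparaginyl hydroxylase HIF1AN lowers its activity. Tumour cells often run glycolysis with oxygen present too.

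Most of the 39 genes differed little between the arms, as did most of all genes measured. The median of the 39 was −0.11 on the log2 scale, against 0.012 over all genes. Within 0.5 of 0 lay 34 of the 39, and 9671 of all 12582 genes. Below 0 stood 26 of the 39 (66.7%), where 48.5% of all genes did. Only ANGPTL4 was lower by at least 1, with 3.96% of all genes at that level, and none of the 39 was higher by at least 1, with 3.95% of all genes there. At a distance of 0.5, ANGPTL4 and NDRG1 were lower, beside 12.9% of all genes, and VEGFA, ALDOC and PFKM were higher, beside 10.2% of all genes.

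**Figure D1:**
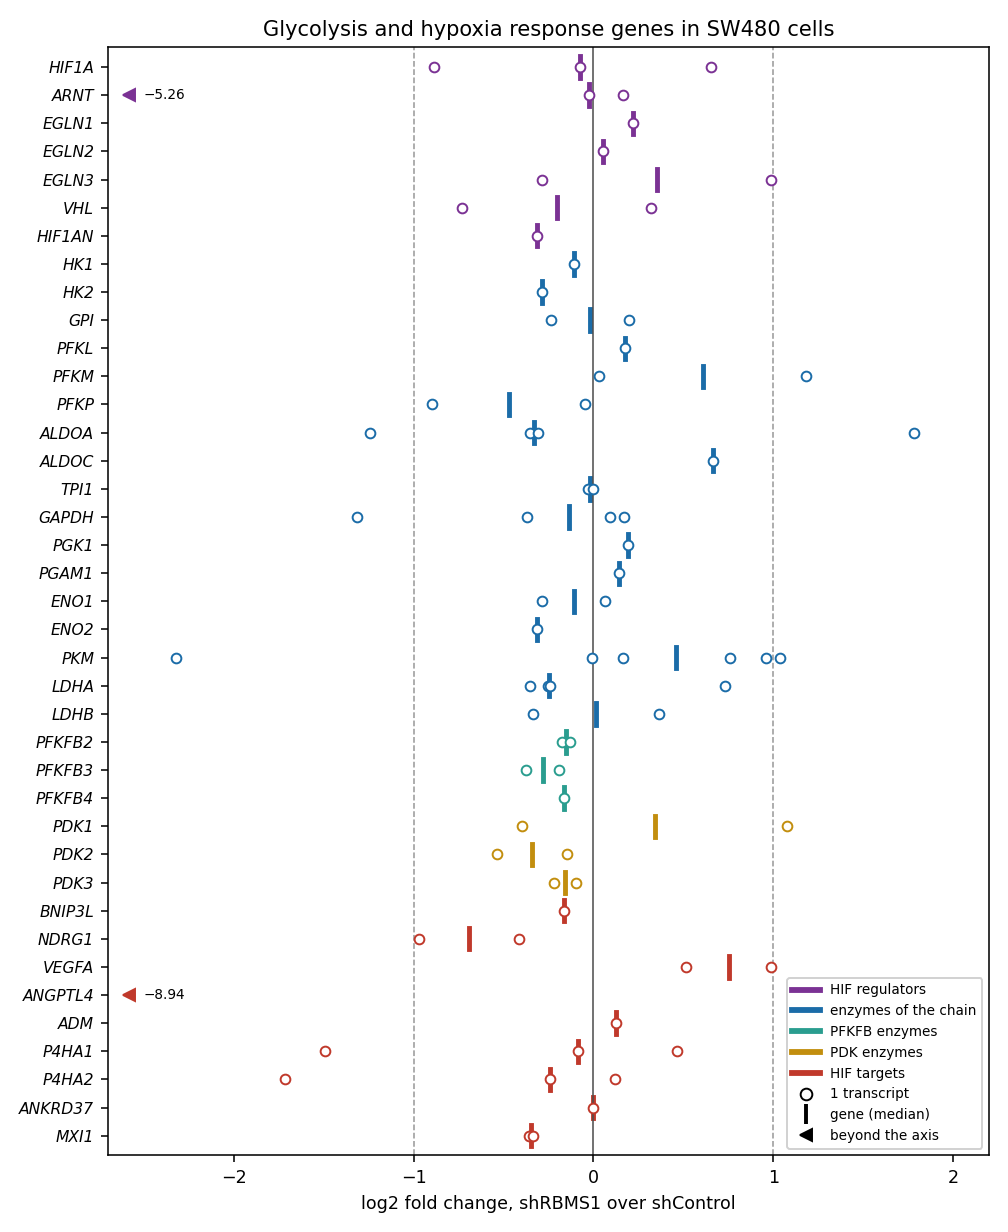
Log2 fold change (shRBMS1 over shControl) of each of the 39 measured genes, coloured by role; circles are single transcripts, bars are gene medians, dashed lines mark 1 in either direction, and triangles at the left edge are values beyond the axis, printed beside them. Most bars lie within 0.5 of 0, and ANGPTL4 and 1 transcript of ARNT lie beyond the axis, at −8.94 and −5.26. Transcripts of ARNT, HIF1A, ALDOA, GAPDH, PKM, P4HA1 and P4HA2, among others, lie far apart.

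The groups are given apart by role. Glycolytic enzymes and their regulators had a median of −0.11 with 15 of 23 below 0, and ranged only from −0.47 to 0.66. HIF regulators had a median of −0.026 with 4 of 7 below 0, and ranged from −0.32 to 0.35. The sign of that median turned with the transcripts read, to 0.16 with the longest transcript of each gene and to 0.051 without transcripts beyond 5 in either direction. HIF targets had a median of −0.16 with 7 of 9 below 0, and ranged from −8.94 to 0.75. Without transcripts beyond 5, which removes ANGPTL4, the HIF targets had a median of −0.12 with 6 below 0, and no gene of the set was lower by at least 1.

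**Figure D2:**
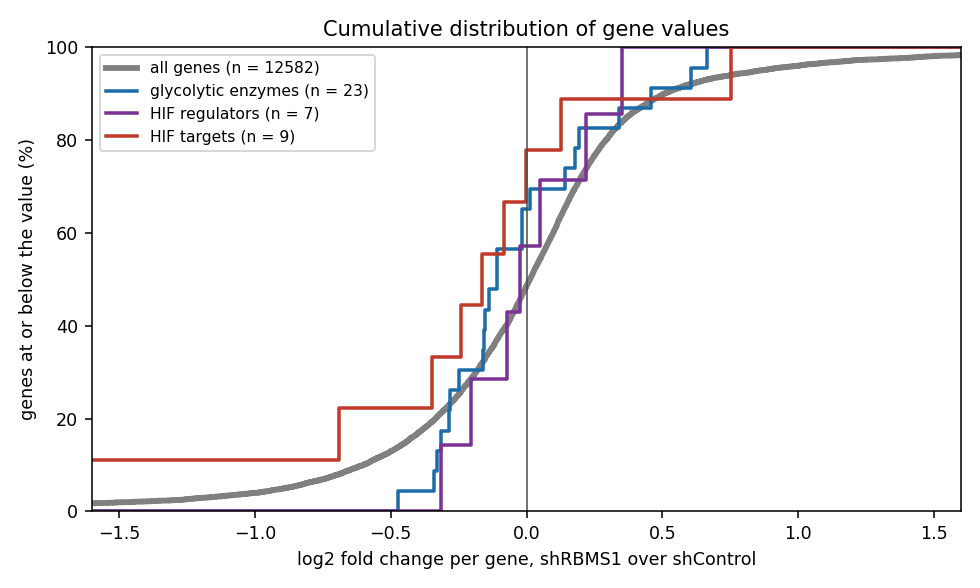
Cumulative share of genes (vertical axis, %) at or below each log2 fold change (horizontal axis) for all 12582 genes, the 23 glycolytic enzymes, the 7 HIF regulators and the 9 HIF targets. The curve of glycolytic enzymes includes the PFKFB and PDK enzymes. This curve and that of HIF targets lie left of that of all genes around 0. The 17 enzymes of the chain alone, not drawn apart, had a median of −0.018 with 10 below 0. The first step of the HIF targets, ANGPTL4, lies outside the axis at −8.94.

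The composition of transcripts ran alongside these values. Genes of the set had a median GC content of 52.7% in their longest transcript, against 49.0% over all genes. When genes were cut into 10 equal bins by this measure, the median fold change was 0.14 in the most A+T-rich bin, fell to −0.09 in the 9th bin of rising GC content, and was −0.026 in the most GC-rich bin. After each gene was centred on the median of its own bin, the set's median was −0.07 with 23 of 38 genes below 0, GPI having no sequence in the annotation links.

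HIF1A, the alpha subunit, stood at −0.074 as a gene, but its 3 transcripts went apart. It lies at chr14:61695513-61748258 (hg38). NM_001530 was at −0.07 per the authors' deposited table. NM_181054, which skips an exon near the 3′ end of the coding sequence, was at −0.89 per the authors' deposited table, and NM_001243084, which starts 2082 bases further downstream, was at 0.66. The skipped exon is number 14 of NM_001530, at chr14:61745691-61745817 on the plus strand, and all of its 127 bases are coding. It is shown because it tells the lower transcript from the other 2, and since 127 is not a multiple of 3 its loss changes the reading frame.
HIF1A exon 14: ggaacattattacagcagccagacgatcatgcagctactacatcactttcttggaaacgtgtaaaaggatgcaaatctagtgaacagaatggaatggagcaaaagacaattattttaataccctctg

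VHL, the substrate receptor that binds hydroxylated HIF1A, showed a like pattern at a gene value of −0.20. NM_000551, with 3 exons, was at 0.32 per the authors' deposited table, and NM_198156, which lacks exon 2, was at −0.73. That exon lies at chr3:10146514-10146636 on the plus strand and has 123 bases, all coding and a multiple of 3. It is shown as the stretch by which the 2 VHL transcripts differ in their coding sequence.
VHL exon 2: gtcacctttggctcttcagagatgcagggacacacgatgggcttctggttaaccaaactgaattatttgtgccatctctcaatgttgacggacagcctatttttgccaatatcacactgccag

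ARNT, the stable partner of the dimer, was at −0.026 as a gene, and NM_001197325 and NM_001668 stood at −0.03 and 0.16 per the authors' deposited table. The remaining ARNT transcript, NM_001286035, was at −5.26 there, and the mean of all 3 would put the gene at −1.71. Among the prolyl hydroxylases, EGLN1 was at 0.22 and EGLN2 at 0.051 per the authors' deposited table, each with 1 transcript. EGLN3, itself a HIF target, was at 0.35 as a gene, with NM_001308103 at 0.99 and NM_022073 at −0.28 per the authors' deposited table. HIF1AN was the lowest regulator, at −0.32 per the authors' deposited table, or 80.4% of control. So 4 of the 7 regulators rest on transcripts more than 1 apart, and the sign of each of these, HIF1A, ARNT, VHL and EGLN3, depends on which transcript is read. Such gaps are common, as 49.3% of all genes with several transcripts had them more than 1 apart and 66.5% on both sides of 0.

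Along the chain itself, 10 of the 17 enzymes lay below 0, with a median of −0.018. Hexokinases, which trap glucose by phosphorylating it, stood at −0.11 for HK1 and −0.29 for HK2 per the authors' deposited table. GPI, which converts glucose 6-phosphate to fructose 6-phosphate, was at −0.018, midway between transcripts at −0.24 and 0.20 per the authors' deposited table. The next step, and the main point of control, is phosphofructokinase, and its 3 subunit genes went different ways. The platelet-type PFKP was at −0.47 or 72.1% of control, the lowest enzyme of the chain, with transcripts at −0.90 and −0.05 per the authors' deposited table. PFKL, the liver-type subunit, was at 0.18 per the authors' deposited table. The muscle-type PFKM was at 0.61, where NM_000289 stood at 0.03 and NM_001166686, which starts 13357 bases upstream of it and codes for a longer protein, at 1.18 per the authors' deposited table.

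Aldolases cleave fructose 1,6-bisphosphate, and the 2 measured genes stood on either side of 0. ALDOC, the brain-type aldolase, was the highest enzyme of the chain at 0.66 per the authors' deposited table, or 158% of control. ALDOA was at −0.33 as a gene, the middle of 4 transcripts at −1.24, −0.35, −0.31 and 1.78 per the authors' deposited table. The 3 higher transcripts of ALDOA share a coding length of 1095 bases and differ in where they start, the highest, NM_001127617, starting 223 bases after the most upstream one. NM_001243177, the lowest, starts 1460 bases after it and has a coding length of 1257 bases.

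The steps from triose phosphate to lactate, pyruvate kinase apart, ranged from −0.31 to 0.19. Triose phosphate isomerase, TPI1, was at −0.016, with transcripts at −0.03 and 0.00022 per the authors' deposited table. GAPDH, widely used as a reference gene, was at −0.14 or 90.9% of control, its transcripts at −1.31, −0.37, 0.09 and 0.17 per the authors' deposited table. PGK1, which makes the first ATP of the pathway, was at 0.19, and the mutase PGAM1 at 0.14, each from 1 transcript per the authors' deposited table. ENO1, the common enolase, was at −0.11 with transcripts at −0.28 and 0.07 per the authors' deposited table, and the neuronal form ENO2 was at −0.31 there. Lactate dehydrogenase subunits stood at −0.25 for LDHA and 0.013 for LDHB. The 3 coding transcripts of LDHA lay between −0.36 and −0.24 and its non-coding one, NR_028500, at 0.73 per the authors' deposited table. NR_028500 shares its GENCODE model with the coding transcript NM_005566, at −0.25. LDHB joined −0.34 and 0.36.

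Pyruvate kinase, PKM, makes 2 main proteins by choosing between a pair of exons, M1 known from muscle and brain and M2 known from growing and tumour cells. The gene, at chr15:72199029-72231591, stood at 0.46 or 138% of control, with transcripts from −2.32 to 1.04 per the authors' deposited table. The exon pair is shown because it tells M1 from M2 transcripts. Both exons are coding and have 167 bases, lie on the minus strand, and capitals mark the 62 positions at which they differ. The M1 exon is at chr15:72203022-72203188 and the M2 exon at chr15:72202454-72202620.
PKM M1 exon: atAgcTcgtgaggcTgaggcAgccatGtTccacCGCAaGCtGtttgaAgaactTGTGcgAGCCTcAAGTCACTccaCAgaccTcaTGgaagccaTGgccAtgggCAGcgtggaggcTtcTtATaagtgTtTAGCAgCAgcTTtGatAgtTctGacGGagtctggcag
PKM M2 exon: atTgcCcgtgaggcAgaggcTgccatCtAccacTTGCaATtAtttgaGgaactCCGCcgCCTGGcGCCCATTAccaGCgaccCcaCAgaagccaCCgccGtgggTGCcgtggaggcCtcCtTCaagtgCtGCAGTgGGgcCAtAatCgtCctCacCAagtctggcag

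By this exon, NM_002654, NM_001206798 and NM_001206797 are M2 transcripts and NM_182470, NM_182471 and NM_001206799 are M1 transcripts. The M2 transcripts stood at −0.0060, 0.16 and 1.04 per the authors' deposited table. The M1 transcripts stood at −2.32, 0.96 and 0.76 there. The 2 forms thus overlapped, and the lowest value of the gene came from an M1 transcript that shares its GENCODE model with another M1 transcript at 0.96.

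**Figure D3:**
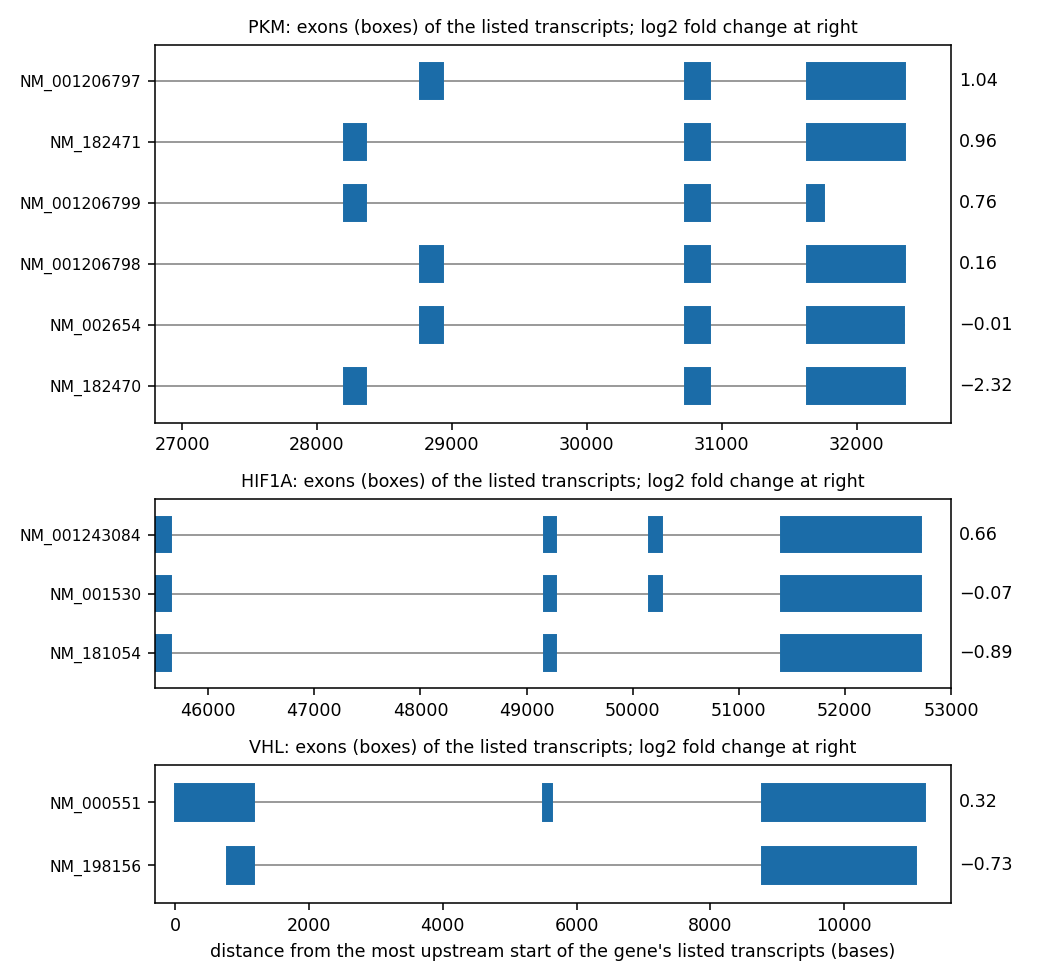
Exons (boxes, to scale in each panel) of the listed transcripts of PKM and HIF1A, both near their 3′ ends, and of all of VHL, against the distance in bases from the most upstream start; the log2 fold change of each transcript is at the right. M1 and M2 exons of PKM appear among both higher and lower transcripts, while the transcripts of HIF1A and VHL that lack an exon are the lowest of each gene, at −0.89 and −0.73.

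Enzymes that set the pace of glycolysis from the side were mostly below 0. PFKFB enzymes make and break fructose 2,6-bisphosphate, the strongest activator of phosphofructokinase, and all 3 measured members lay slightly below 0. PFKFB3, known for its high kinase activity and as a HIF target, was at −0.28, with transcripts at −0.37 and −0.19 per the authors' deposited table. PFKFB4 was at −0.16 there, and PFKFB2 at −0.15 with transcripts at −0.17 and −0.13. This family had none of the wide gaps between transcripts seen in ALDOA or PKM.

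Pyruvate dehydrogenase kinases switch off the entry of pyruvate into the mitochondrial cycle. PDK1, the best known HIF target among them, was at 0.34, and its transcripts took opposite signs, NM_002610 at −0.39 and NM_001278549 at 1.08 per the authors' deposited table. PDK2 was at −0.34 with transcripts at −0.54 and −0.15 per the authors' deposited table, and PDK3 at −0.16 with −0.22 and −0.10 there. PDK1 would stand below 0 with PDK2 and PDK3 if only NM_002610 were read.

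Among HIF targets, ANGPTL4, a secreted inhibitor of lipoprotein lipase at chr19:8364155-8374370, was lowest of the whole set. Its value of −8.94 is 0.204% of control and stands at percentile 0.0318 of all genes. It rests on 1 transcript, NM_001039667, and the table runs only from −9.99 to 9.96, with 109 transcripts at or beyond 9 in either direction. Without a level beside it, a level near 0 in the knockdown library cannot be told apart from a large difference in a well-expressed transcript. NM_001039667 lacks exon 4 of the longer coding transcript NM_139314, for which no row is in the table used here, so the longer form of ANGPTL4 was not analysed here. The exon is shown as the sequence that the measured transcript does not hold. It lies at chr19:8369219-8369332 on the plus strand and its 114 bases are all coding and a multiple of 3.
ANGPTL4 exon 4: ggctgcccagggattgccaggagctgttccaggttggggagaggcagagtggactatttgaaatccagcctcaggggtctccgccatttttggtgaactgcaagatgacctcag

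The other HIF targets spread over a far smaller range. NDRG1, a stress-induced protein linked to reduced metastasis, was at −0.69 or 62.0% of control, with both transcripts below 0, at −0.97 and −0.41 per the authors' deposited table. VEGFA, the main angiogenic growth factor, at chr6:43770211-43786487, was highest of the set at 0.75 or 168% of control, with both transcripts above 0, at 0.52 and 0.99 per the authors' deposited table. NDRG1 and VEGFA thus lay on opposite sides of 0 with each of their listed transcripts. VEGFA has 20 RefSeq transcripts in the reference and 2 of them in the table, so most of its forms were not analysed here. The same limit holds for the enzymes HK1 (1 of 27 in the table), PFKM (2 of 26) and PFKP (2 of 12), among others. ADM, the vasodilator peptide adrenomedullin, was at 0.13 per the authors' deposited table.

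The mitophagy receptor BNIP3L was at −0.16 and ANKRD37, a small ankyrin repeat protein, at −0.0040, each from 1 transcript per the authors' deposited table. MXI1, which opposes MYC, was at −0.35, with transcripts at −0.36 and −0.34 per the authors' deposited table that lay closer together than those of any other HIF target with several. The collagen prolyl hydroxylase subunits P4HA1 and P4HA2 were at −0.083 and −0.24, and each joined a transcript near 0 with a much lower one. For P4HA1 the values per the authors' deposited table were −1.49, −0.08 and 0.46, and for P4HA2 they were −1.71, −0.24 and 0.12. The P4HA1 transcripts at −1.49 and 0.46 share their GENCODE model.

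Gaps between transcripts of 1 gene were as common here as elsewhere. Among the 24 genes of the set that list several transcripts, the highest and lowest lay more than 1 apart in 12 (50%), against 49.3% of all such genes. Transcripts stood on both sides of 0 in 15 of the 24 (62.5%), against 66.5% over all such genes. Of the 77 transcripts, 7 were lower and 4 higher by at least 1, which is 14.3% in either direction, against 16.1% of all transcripts matched to a gene.

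Genes next to the set in the same pathways were read by lists that do not overlap it, and in each a smaller share lay below 0 than the set's 66.7%. The set and these lists were chosen with earlier results of these data known, so the contrast is a description and was not tested. Of 42 other genes of glucose and pyruvate handling, 27 were measured, with a median of −0.023 and 15 (55.6%) below 0. The ADP-dependent glucokinase ADPGK was lower by at least 1, beside 3.96% of all genes, at −3.89 per the authors' deposited table. None was higher by as much, beside 3.95% of all genes. At the low end followed PDHA1, a subunit of pyruvate dehydrogenase, at −0.82, with transcripts from −7.28 to 0.29 per the authors' deposited table, and PCK2 at −0.68. The high end held PDK4 at 0.73, the phosphatase subunit PDP1 at 0.63 and PDHX, a structural part of the pyruvate dehydrogenase complex, at 0.51.

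Of 29 other components of the HIF pathway, 25 were measured, with a median of −0.016, 13 (52%) below 0 and none beyond 1. By at least 1, 3.96% of all genes were lower and 3.95% higher. The lowest were CITED4, which competes for p300, at −0.82 and the coactivators EP300 at −0.74 and CREBBP at −0.68 per the authors' deposited table. The highest were the membrane prolyl hydroxylase P4HTM at 0.91, the ubiquitin ligase SIAH1 at 0.64 and COPS5 at 0.45. P4HTM joins transcripts at 0.0056 and 1.82 per the authors' deposited table.

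Of 59 other HIF targets, 48 were measured, with a median of 0.0027 and 23 (47.9%) below 0. RNASE4 and SPAG4 were lower by at least 1, beside 3.96% of all genes, at −1.49 and −1.31 per the authors' deposited table. TGFA was next at −0.93. HMOX1, a haem oxygenase that also answers to oxidative stress, and the chemokine receptor CXCR4 were higher by at least 1, at 1.08 and 1.07. That level was reached by 3.95% of all genes. STC1 was next at 0.68. This wider list therefore lay near the median of all genes, whereas the 9 measured targets of the set had 7 below 0. Both lists were chosen with earlier results known, and their difference was not tested.

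Sites of the kind HIF reads were looked for in the promoters. ACGTG, a core at which HIF binds DNA, often within a longer element, was the only form searched for. Other forms of the site were not counted, and the core below means ACGTG alone. The window ran from 250 bases before to 50 after a start site of each gene (GRCh38.p14). For GAPDH and GPI, which both held the core, that site lies downstream of the first base of the gene in RefSeq. Of the 39 genes, 34 had a promoter there, and 14 of these (41.2%) held ACGTG on either strand, against 27.2% of 10012 promoters of measured genes and 21.4% of all 35116. By role the core was found in 8 of 17 enzymes of the chain, 0 of 2 PFKFB enzymes, 1 of 3 PDK enzymes, 2 of 6 HIF regulators and 3 of 6 HIF targets. A match is a match of letters and not a bound site. The windows below are those of the lowest gene, the highest enzyme, and 5 genes of the chain or of HIF control within 0.5 of 0, each 29 bases in length, written on the strand of the gene with the core, or CACGT where it lies on the other strand, in capitals.
ANGPTL4 chr19:8363909-8363937: ggaaagaagagtCACGTctcccacggttc
ALDOC chr17:28576907-28576935: ccccggaggagtCACGTagctctgcgaca
ALDOA chr16:30064089-30064117: ccttcccctccaCACGTcaacgattctat
PGK1 chrX:78104034-78104062: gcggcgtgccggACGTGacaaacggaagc
ENO2 chr12:6914450-6914478: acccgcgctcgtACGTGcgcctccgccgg
LDHA chr11:18394465-18394493: agcccgactcacACGTGggttcccgcacg
EGLN1 chr1:231422284-231422312: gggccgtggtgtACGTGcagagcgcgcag

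Genes with the core in this window did not stand apart from those without it in any plain way. The 14 with it had a median fold change of −0.11 and 10 below 0, and the 20 without it had −0.05 and 12 below 0. The difference was not tested. ANGPTL4, at −8.94, and ALDOC, at 0.66, both hold the core.

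RBMS1 is described as binding A+U-rich RNA, the sequence AUAUA among it, so ATATA was counted in the 3′ UTRs of the set. For each gene the longest 3′ UTR among the GENCODE 29 models linked to its listed transcripts was read, with overlapping matches counted singly. Of 38 genes with such a UTR, 20 (52.6%) held at least 1 ATATA, against 58.8% of 11243 genes overall. HIF regulators held it in 5 of 7, HIF targets in 5 of 9 and glycolytic enzymes in 10 of 22, and their UTRs had median lengths of 2255, 998 and 721.5 bases. VEGFA had the most matches by far, 29 in 1925 bases, many of them in runs of alternating A and T. HIF1AN followed with 17 in 11861 bases, then PGK1 with 12 in 3466 bases and BNIP3L with 9 in 2717 bases. ANGPTL4, NDRG1, PKM, ALDOA, GAPDH and ENO1 had none. Windows of 29 bases around a match are shown for 5 genes that hold it, VEGFA as the highest of the set among them, with ATATA in capitals.
VEGFA chr6:43784910-43784938: atacatacatttATATAtatatatattat
EGLN3 chr14:33925079-33925107: atgaaaggaaaaATATAtccctggtagtt
PGK1 chrX:78126067-78126095: attctagagtgcATATAtttatattttgc
LDHA chr11:18407588-18407616: ttaccgtgtgttATATAacttcctggctc
HIF1AN chr10:100548747-100548775: ctttgagagcctATATAgccttcctgtga

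Fold changes did not follow the number of matches in 1 direction. Of the 20 genes with ATATA 13 lay below 0, at a median of −0.08, and of the 18 without it 12 lay below 0, at a median of −0.15. Over all genes the medians were 0.015 with and −0.0043 without the match. VEGFA with 29 matches was the highest gene of the set, HIF1AN with 17 was at −0.32, and the lowest genes, ANGPTL4 and NDRG1, had none. The 3′ UTR letters say nothing of whether RBMS1 binds there, and no difference was tested.

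**Figure D4:**
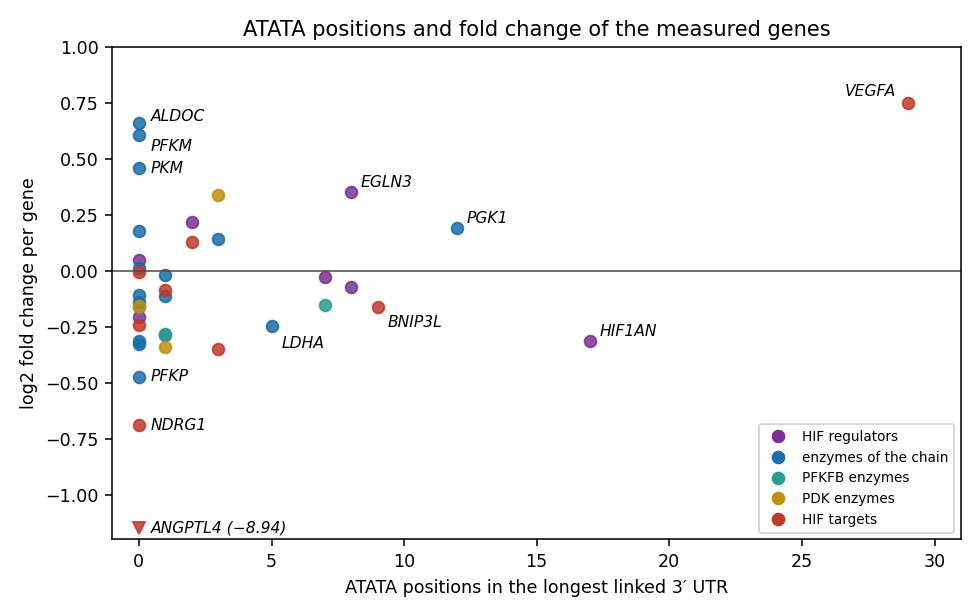
Log2 fold change per gene (vertical axis) against the number of ATATA positions in its longest linked 3′ UTR (horizontal axis) for the 38 genes with a UTR, coloured by role; the triangle marks ANGPTL4 at −8.94, beyond the axis. VEGFA stands alone at 29 positions and 0.75, and genes with 0 positions run from −8.94 to 0.66.

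How reads were shared between near-identical sequences bears on several of these genes. GENCODE 29 names 62 pseudogenes of GAPDH, 13 of PGAM1, 6 of LDHA, 5 of PKM and 4 each of TPI1 and ENO1, and the treatment of such copies in the authors' counting is not stated in the sources used here. In 20 of the 39 genes, ANGPTL4, VEGFA, ALDOA and GAPDH among them, an exon overlaps an exon of a gene on the other strand. In 8 of the 39, EGLN2 and PGK1 among them, an exon overlaps an exon of a gene on the same strand. No share over all genes is given for either count. Use of strand in counting is not stated either, and it would not separate overlaps on the same strand, so these values are uncertain to that extent. As for the cell type, all 7 markers of colon epithelium had a row in the table, as did 1 of 5 leukocyte markers (CD68) while 0 of 5 for fibroblasts and 0 of 4 for endothelium did. A row shows only that a fold change was made. Of the 7 epithelial markers 6 lay below 0, at a median of −0.43, with VIL1 lowest at −2.33 per the authors' deposited table, and the part of this in the values above was not tested.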

How the data were processed

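Total RNA of SW480 cells was sequenced in 3 libraries, 2 shControl and 1 shRBMS1, after rRNA removal, per the labels' protocols. STAR 2.5, Cuffdiff, Cufflinks and hg38 are listed without roles or settings, per the submitters' processing notes. Values are log2 fold changes per transcript that the authors deposited. Base 2 was read from the spacing of repeated values: 20 transcripts lay 1 from a value seen at least 3 times (tolerance 1.5e-05), against 4 for natural logs and 5 for log10. The depth of each library is unknown, and no interval could be computed.

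RefSeq names of GRCh38.p14 matched 19818 of 20104 transcripts, and the other 286 were left out. Genes were given as the median over their listed transcripts. Exons and 3′ UTRs came from GENCODE 29 models through their RefSeq links (74 of the 77 transcripts of the set), and these models can differ from the RefSeq transcript. Members and lists were chosen with earlier results of these data known. All members with a row are named, and of each other list the 3 highest and 3 lowest. Gene values and counts were checked on simulated data. Alternatives were other values per gene, other thresholds, centring and leaving out extreme transcripts. Python 3.11.15, numpy 2.4.6, pandas 2.3.3 and matplotlib 3.10.9 were used.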

Additional observations from a re-analysis of the deposited data

How the results depend on the processing

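Over the alternatives tried, the medians of all members, glycolytic enzymes and HIF targets stayed below 0. With the longest transcript of each gene, HIF regulators had 2 of 7 below 0 and a median of 0.16, and without transcripts beyond 5 a median of 0.051, the first reading other transcripts and the second leaving out 1 of ARNT. At a threshold of 0.5 the counts beyond it were 3 higher and 2 lower. The count lower by at least 1 was 2 with the mean of transcripts, which adds ARNT at −1.71, and 0 without transcripts beyond 5, which drops ANGPTL4. Reading the longest transcript of each gene put PKM, P4HA2 and ALDOA lower by at least 1 too, at −2.32, −1.71 and −1.24. It also put PFKM higher by at least 1, at 1.18. The shares of all genes given above are for gene medians. No such share is given for these other readings, so their counts have nothing to be set against. For PKM a further transcript on the same GENCODE model stood at 0.96. Of 39 genes, 10 changed sign with the transcript nearest to 0, EGLN3 and PDK1 among them at −0.28 and −0.39. HIF1A and ARNT were not among these 10, but changed sign with the longest transcript, to 0.66 and 0.16. Centring by GC content was added after seeing the data. No paired analysis was possible because the deposited values are 1 comparison with no value per library, and for the same reason no library could be left out. Unknown depth limits every value, most of all those near the ends of the table.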
